A study of Mus musculus with 12 samples.

Results

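The effect of repeated head injury on the mouse cortex was examined as the average of 2 diets, for genes that differed from sham in the same direction on both. It was estimated from all 12 RNA-seq libraries of the study, and of 19252 genes tested 8892 had the same sign in both diets. The injury was rlmTBI, a repetitive closed head injury graded as less than mild, and the sham animals are its controls. The 4 groups of 3 libraries were injured mice on a purified diet, sham mice on that diet, injured mice on a fish oil diet and sham mice on that diet. All animals were WT mice of the C57BL/6J strain, and tissue was taken 6 months after injury. The purified diet was given continuously, whereas the fish oil diet was also high in fat and was given in cycles, so the diets differ in more than fish oil. The age and sex of the mice, the number of impacts and the diet cycle lengths were not given in the sources used here. Nothing in the labels says that each library is a different animal, and p-values then measure only the spread between libraries.

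Repeated mild impacts strain axons, the myelin around them and the walls of small vessels, and reactive glia, white matter damage and vascular change are known long after such injury. Myelin is made by mature oligodendrocytes, which wrap axons in membrane held together by proteins such as myelin basic protein. Fish oil supplies omega-3 fatty acids, which are ligands of the nuclear receptor PPAR alpha, an activator of genes of fatty acid oxidation.

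Total counts lay between 46362158 and 70754854 per library, and the common biological coefficient of variation was 0.289. The neuronal marker Rbfox3 was present in all libraries, at 143, 70.2 and 79.3 CPM (counts scaled to a common library total) in purified-diet injured libraries, 93.2, 120.2 and 119 CPM in purified-diet sham libraries, 85.8, 119 and 169 CPM in fish oil injured libraries and 108, 133 and 114 CPM in fish oil sham libraries. Within each group, libraries are given in the order 2, 3 and 4 of their labels. Several libraries also held transcripts of neighbouring regions. Cdhr1, a cadherin of olfactory bulb neurons, had 522 CPM in purified-diet injured library 3 and 1.87 to 25.9 CPM in the other 11 libraries. Drd2, the dopamine D2 receptor of striatal neurons, had 72.2 CPM in fish oil sham library 2 and 27.4 CPM in purified-diet sham library 4, against 0.331 to 10.5 CPM elsewhere. Ttr, the transthyretin of the choroid plexus, had 2417 and 2256 CPM in fish oil injured libraries 3 and 4 and 434 CPM in purified-diet sham library 3, against 9.82 to 186 CPM in the other 9 libraries. Results were therefore also computed without 2 of these libraries (purified-diet injured library 3 and fish oil sham library 2). Another fit used choroid plexus, striatal and olfactory bulb levels as covariates. Fish oil injured libraries 3 and 4 stayed in the fit without 2 libraries, where the choroid plexus median log2 fold change was 1.35. The centred choroid plexus level was 0.74, 3.45 and 3.40 in fish oil injured and -1.11, -0.83 and -0.90 in fish oil sham libraries. This covariate largely overlaps with the fish oil injury difference, and the covariate fit has fewer residual degrees of freedom. Its fish oil values are therefore uncertain. Of 96 genes followed by name, the averaged log2 fold change moved by over 1.5 times or changed sign for 59 with the covariates, for 17 without the 2 libraries and for 31 in at least 1 fit without 1 library. Among the 59, Aqp1, Ttr, Drd2, Cdhr1, Adora2a and Trh belong to the lists used as covariates. Their move in that fit is partly built in.

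No gene passed the threshold in the averaged comparison (edgeR quasi-likelihood test, Benjamini-Hochberg adjusted p under 0.05), 0 of 19252 genes or 0%, and the lowest adjusted p was 0.0716. At an unadjusted p under 0.05 there were 694 genes, 3.6% of those tested, of which 363 (1.89%) were higher and 331 (1.72%) lower in injured tissue. The same comparison gave 3 genes past the threshold with DESeq2 (Vwa5b1, Dsp and Gm1110) and 2 with limma-voom (Vwa5b1 and Gm1110). Gm1110 entered the test only through the fish oil injured group, where it is high, as described below. The share of genes with the same sign in both diets was 46.2%, made up of 4409 genes higher (22.9%) and 4483 genes lower (23.3%) in injured tissue. Across the 19252 genes, the log2 fold changes of injured over sham in one diet and the other had a Pearson r of -0.065 and a Spearman coefficient of -0.082. These coefficients describe genes measured in common libraries, and genes are not independent replicates. Leaving out single libraries moved r between -0.192, without fish oil sham library 3, and 0.073, without fish oil sham library 2, so its sign rests on single libraries. The share with the same sign lay between 39.7% and 52.9% in those fits and was 53.8% without the 2 libraries of other regions. The median size of the log2 fold change was 0.113 for the average, 0.181 for the purified diet and 0.150 for the fish oil diet. The difference between the diets in their injury effect passed the threshold for 0 genes, with a lowest adjusted p of 0.820 (edgeR quasi-likelihood test of the interaction).

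**Figure D1:**
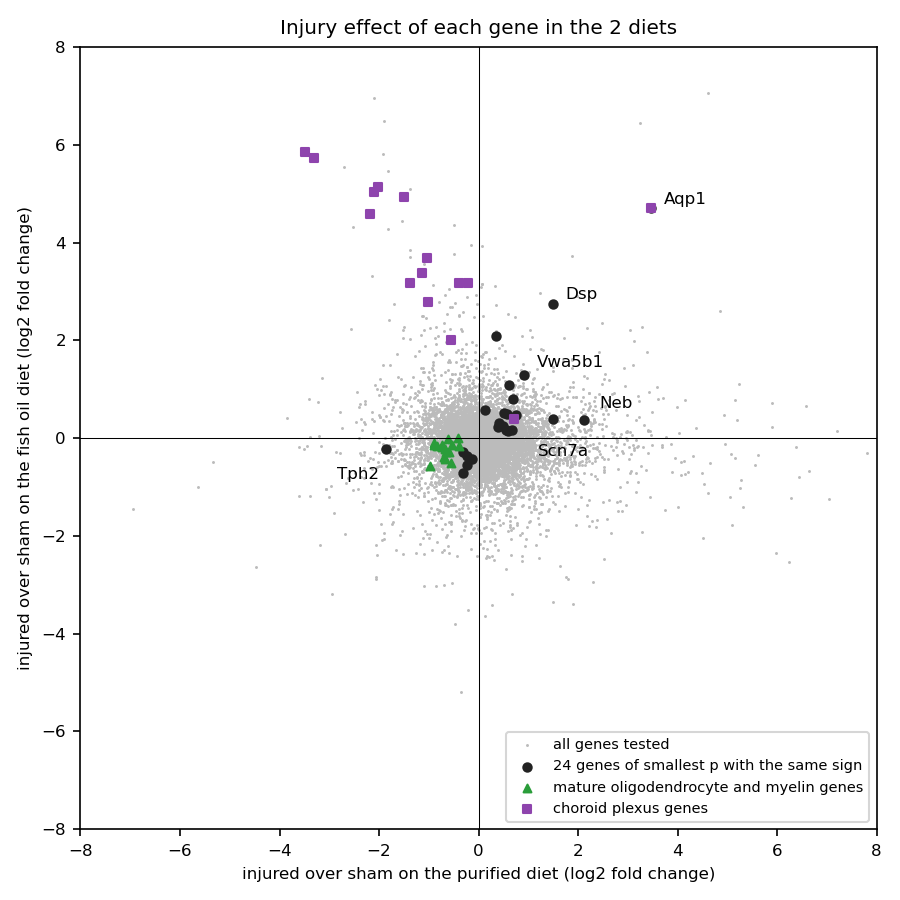
Log2 fold change of injured over sham for each of the 19252 genes tested, on the purified diet (horizontal axis) and on the fish oil diet (vertical axis), with 1 gene outside the axes. Black circles are the 24 genes of smallest p with the same sign, green triangles the mature oligodendrocyte and myelin genes and purple squares the choroid plexus genes. The cloud shows no diagonal (Pearson r -0.065), the myelin genes lie at lower left and 13 of 15 choroid plexus genes lie at upper left.

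The strongest gene was Vwa5b1 (ENSMUSG00000028753.12), which encodes a protein with a von Willebrand factor A domain, at chr4:138565360-138635884 on the minus strand of GRCm38. It had 8.86, 6.30 and 7.58 CPM in purified-diet injured libraries, against 4.69, 3.87 and 3.42 CPM in purified-diet sham libraries. On the fish oil diet it had 12.01, 8.93 and 10.97 CPM in injured libraries, against 4.60, 3.89 and 4.52 CPM in sham libraries. Every injured library lay above every sham library, across the diets as well as within each. The log2 fold change was 0.92 ± 0.19 (SE) on the purified diet, 1.29 ± 0.19 on the fish oil diet and 1.11 ± 0.14 on average, with an edgeR adjusted p of 0.0716. Leaving out each library in turn gave averages of 1.04 to 1.18, and the value was 1.19 without the 2 libraries of other regions and 1.32 with the regional covariates. DESeq2 called it at an adjusted p of 4.3e-11 and limma-voom at 0.0466, while its edgeR adjusted p was 0.579 with the regional covariates. Vwa5b1 was therefore the only gene that passed under several tools at a mean of at least 1 CPM, and it did not pass under edgeR with the 4 groups as fitted here.

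The other end is marked by Trank1 (ENSMUSG00000062296.8), whose protein carries tetratricopeptide and ankyrin repeats, at chr9:111311739-111395775 on the plus strand of GRCm38. It was the lower gene of smallest p with the same sign in both diets. Trank1 had 629, 615 and 462 CPM in purified-diet injured libraries, against 663, 711 and 630.1 CPM in purified-diet sham libraries. It had 427, 340.1 and 391 CPM in fish oil injured libraries, against 559.8, 534 and 597 CPM in fish oil sham libraries. The injured libraries lay below the sham libraries of their own diet without overlap, narrowly on the purified diet, where the nearest libraries were at 629 and 630.1 CPM. The average log2 fold change was -0.39 ± 0.094 (SE, unadjusted p 0.00143, edgeR adjusted p 0.991), and leaving out single libraries gave -0.43 to -0.33.

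Windows before the RefSeq starts of these genes are shown because the 2 genes head the higher and lower genes. The windows differ in base composition. Each run is the 250 bases before the RefSeq start in GRCm38.p6, read 5′ to 3′ on the gene's strand, with CG dinucleotides in capitals. The Vwa5b1 window is chr4:138623993-138624242 on the minus strand, and the Trank1 window is chr9:111311489-111311738 on the plus strand. The Vwa5b1 window lies inside the span that GENCODE gives the gene, downstream of its GENCODE 5′ end at 138635884. Which start Vwa5b1 uses in these libraries cannot be told from gene counts, so its window may not be the promoter in use.
Vwa5b1: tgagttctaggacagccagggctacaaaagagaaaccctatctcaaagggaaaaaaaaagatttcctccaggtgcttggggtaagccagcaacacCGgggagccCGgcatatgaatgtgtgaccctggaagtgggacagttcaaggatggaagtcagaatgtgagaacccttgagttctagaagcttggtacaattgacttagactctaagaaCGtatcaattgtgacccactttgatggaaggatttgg
Trank1: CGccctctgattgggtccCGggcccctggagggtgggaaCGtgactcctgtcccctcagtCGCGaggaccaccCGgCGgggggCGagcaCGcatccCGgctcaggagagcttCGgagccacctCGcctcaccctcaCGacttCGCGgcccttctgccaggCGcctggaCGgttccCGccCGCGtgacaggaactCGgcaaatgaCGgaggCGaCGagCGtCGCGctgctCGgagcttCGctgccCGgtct
The Vwa5b1 window has 46.4% G and C and 3 CG dinucleotides, and the Trank1 window has 70.8% and 30. The medians over 32851 RefSeq promoter windows of this length are 52.4% and 6. On either strand, Trank1 has 1 GC box (GGGCGG, in 32.7% of windows) and 1 CCAAT box (CCAAT, in 33.8% of windows), while Vwa5b1 has neither. Neither window holds TATAAA (12.4% of windows) or the cAMP response element (1.55% of windows). These matches describe letters and were not tested against the expression values.

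Of the 24 named genes with the smallest unadjusted p among those of the same sign and at least 1 CPM, 18 were higher and 6 lower in injured tissue. Their unadjusted p lay between 3.72e-06 and 0.005, and all but Vwa5b1 had an edgeR adjusted p of 0.991. In 7 of them injured and sham libraries did not overlap in either diet, in 11 they separated on the purified diet only, in 5 on the fish oil diet only and in 1 on neither. Among all genes tested, 0.291% separated in the same direction in both diets. On the purified diet 4.93% separated higher and 6.68% lower, and on the fish oil diet 4.97% and 5.23%. The 24 genes were chosen by p in the averaged comparison, so nothing is read from these counts and their values are a description.

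The higher genes are given one by one, since 24 genes chosen by p make no tested group. Gabra3, the alpha 3 subunit of the GABA-A receptor, had 251, 243 and 277 CPM in purified-diet injured libraries, against 189.5, 201 and 197 CPM in purified-diet sham libraries. On the fish oil diet Gabra3 had 229.6, 274 and 253 CPM in injured libraries, against 214, 197 and 237 CPM in sham libraries, with 1 injured library below the highest sham library. Its average log2 fold change was 0.31 ± 0.072 (SE). Scn7a, an atypical sodium channel that senses extracellular sodium, had 13.2, 13.98 and 10.1 CPM in purified-diet injured libraries, against 4.76, 3.77 and 4.76 CPM in purified-diet sham libraries. Scn7a overlapped on the fish oil diet, at 7.25, 8.62 and 5.20 CPM in injured libraries against 6.90, 2.93 and 6.33 CPM in sham libraries, and its log2 fold changes were 1.49 on the purified and 0.38 on the fish oil diet. The 33 voltage-gated sodium and potassium channel genes, Scn7a among them, had 4 members higher and 5 lower in both diets and a median of -0.027.

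Plagl1, an imprinted zinc finger transcription factor that restrains proliferation, had 33.7, 48.7 and 42.99 CPM in purified-diet injured libraries, against 29.3, 30.5 and 28.8 CPM in purified-diet sham libraries. The fish oil diet gave 48.1, 41.8 and 35.9 CPM of Plagl1 in injured libraries, against 25.4, 25.2 and 36.95 CPM in sham libraries, with 1 sham library inside the injured range. The log2 fold changes of Plagl1 were almost equal in the diets, 0.50 on purified and 0.52 on fish oil. Sfrp1, a secreted modulator of Wnt signalling, averaged 18.2 ± 4.38 CPM in purified-diet injured libraries and 10.8 ± 0.581 CPM in purified-diet sham libraries (SD, n = 3 each). On the fish oil diet Sfrp1 averaged 14.1 ± 3.42 CPM in injured and 10.1 ± 1.02 CPM in sham libraries, and the groups overlapped there. The average log2 fold change of Sfrp1 was 0.61, and 0.38 with the regional covariates. Nol4 (nucleolar protein 4) separated in both diets, at 139, 122 and 117 CPM in purified-diet injured against 91.7, 106 and 89.5 CPM in purified-diet sham libraries. Nol4 had 113, 136 and 110.1 CPM in fish oil injured libraries, against 84.7, 101.4 and 104 CPM in fish oil sham libraries. Its average log2 fold change was 0.35 ± 0.087 (SE), and every injured library lay above the sham libraries of its own diet.

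Ppara, the receptor PPAR alpha, had 2.82, 4.93 and 3.70 CPM in purified-diet injured libraries, against 2.45, 2.11 and 2.53 CPM in purified-diet sham libraries. In fish oil injured libraries Ppara had 3.33, 4.90 and 3.85 CPM, against 1.77, 1.80 and 3.41 CPM in fish oil sham libraries, where library 4 overlapped the injured range. The average log2 fold change of Ppara was 0.74 ± 0.21 (SE) and was 0.55 without the 2 libraries of other regions and 0.44 with the regional covariates. Frrs1, a ferric reductase, separated in both diets, at 2.21, 2.65 and 2.24 CPM in purified-diet injured against 1.54, 1.79 and 1.46 CPM in purified-diet sham libraries. Frrs1 had 1.94, 2.49 and 2.46 CPM in fish oil injured libraries, against 1.56, 1.73 and 1.61 CPM in fish oil sham libraries. St6gal1, which adds sialic acid to glycoproteins, also separated in both diets with an average log2 fold change of 0.37 ± 0.10 (SE). Pgpep1, a peptidase that removes amino-terminal pyroglutamate, had 0.55 on the purified and 0.16 on the fish oil diet. With the regional covariates the average was 0.32 for Frrs1, against 0.53 without them, and 0.19 for St6gal1.

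Most of the remaining higher genes were highest in libraries that also held transcripts of other regions, or differed mainly in 1 diet. Aqp1, the water channel of the choroid plexus, had 0.492, 32.5 and 0.880 CPM in purified-diet injured libraries, against 0.397, 2.43 and 0.285 CPM in purified-diet sham libraries. Aqp1 had 2.11, 21.5 and 19.5 CPM in fish oil injured libraries, against 0.723, 0.507 and 0.436 CPM in fish oil sham libraries. In purified-diet injured library 3, where Aqp1 was highest, the centred choroid plexus level was -1.23 and the olfactory bulb level 4.74. The average log2 fold change of Aqp1 was 4.08 ± 1.09 (SE), 2.18 without the 2 libraries of other regions and -0.052 with the regional covariates. Aqp1 is itself part of the choroid plexus covariate, so the last value is partly built in. Dsp, the desmosomal plaque protein desmoplakin and a marker of dentate granule cells, had 0.591, 1.34 and 1.68 CPM in purified-diet injured and 0.264, 0.596 and 0.428 CPM in purified-diet sham libraries. On the fish oil diet Dsp had 1.20, 5.33 and 4.41 CPM in injured and 0.608, 0.507 and 0.517 CPM in sham libraries, highest in the 2 libraries rich in choroid plexus transcripts. DESeq2 called Dsp at an adjusted p of 0.000577, and its average log2 fold change of 2.12 ± 0.39 (SE) was 0.91 with the regional covariates. Slc2a12, a glucose transporter, was likewise at 4.51, 20.9 and 23.3 CPM in fish oil injured libraries against 3.65, 3.31 and 4.58 CPM in fish oil sham libraries, and its average was 1.22, or 0.21 with the covariates. Neb, the giant thin filament protein nebulin of muscle, had 16.3 CPM in purified-diet injured library 3 against 3.86 and 5.80 CPM in the other libraries of that group, and its average of 1.24 was 0.83 without that library and 0.48 with the covariates. Frem1, an extracellular matrix protein, averaged 0.85, and 0.32 with the covariates. The deubiquitinase Usp46 had 0.58 on the purified and 0.14 on the fish oil diet, and Sowahc had 0.13 and 0.58 in the same order. The average of Usp46 was 0.36, and 0.22 with the covariates.

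The 6 lower genes included 3 that separated in both diets, Trank1, Zkscan6 and Slc25a40. Zkscan6, a zinc finger protein with KRAB and SCAN domains, had 15.8, 15.04 and 15.4 CPM in purified-diet injured libraries, against 18.4, 19.03 and 19.7 CPM in purified-diet sham libraries. Zkscan6 had 14.7, 13.7 and 14.3 CPM in fish oil injured libraries, against 15.5, 18.6 and 17.6 CPM in fish oil sham libraries, and its log2 fold changes were -0.30 and -0.28. Slc25a40, a mitochondrial carrier for glutathione, had 16.7, 17.3 and 15.6 CPM in purified-diet injured libraries, against 18.8, 21.7 and 17.6 CPM in purified-diet sham libraries. In fish oil injured libraries Slc25a40 had 17.6, 15.5 and 15.9 CPM, against 19.7, 20.9 and 22.7 CPM in fish oil sham libraries. The nearest injured and sham libraries of Slc25a40 were at 17.3 and 17.6 CPM on the purified diet and at 17.6 and 19.7 CPM on the fish oil diet. Cd46, a complement regulator in humans, averaged 15.7 ± 2.13 CPM in purified-diet injured and 19.6 ± 1.89 CPM in purified-diet sham libraries, and 10.4 ± 1.79 CPM in fish oil injured and 17.04 ± 3.80 CPM in fish oil sham libraries (SD, n = 3 each). Epha10, an ephrin receptor without kinase activity, had log2 fold changes of -0.14 and -0.42 on the purified and fish oil diets. Tph2, the serotonin-synthesising enzyme of raphe neurons, had 0.906, 0.469 and 0.820 CPM in purified-diet injured against 3.03, 2.70 and 2.21 CPM in purified-diet sham libraries. Tph2 overlapped on the fish oil diet, at 1.91, 1.07 and 1.75 CPM in injured and 1.03, 2.96 and 1.55 CPM in sham libraries. The average with the regional covariates was -0.54 for Tph2, against -1.04 without them, and -0.33 for Cd46, against -0.52.

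**Figure D2:**
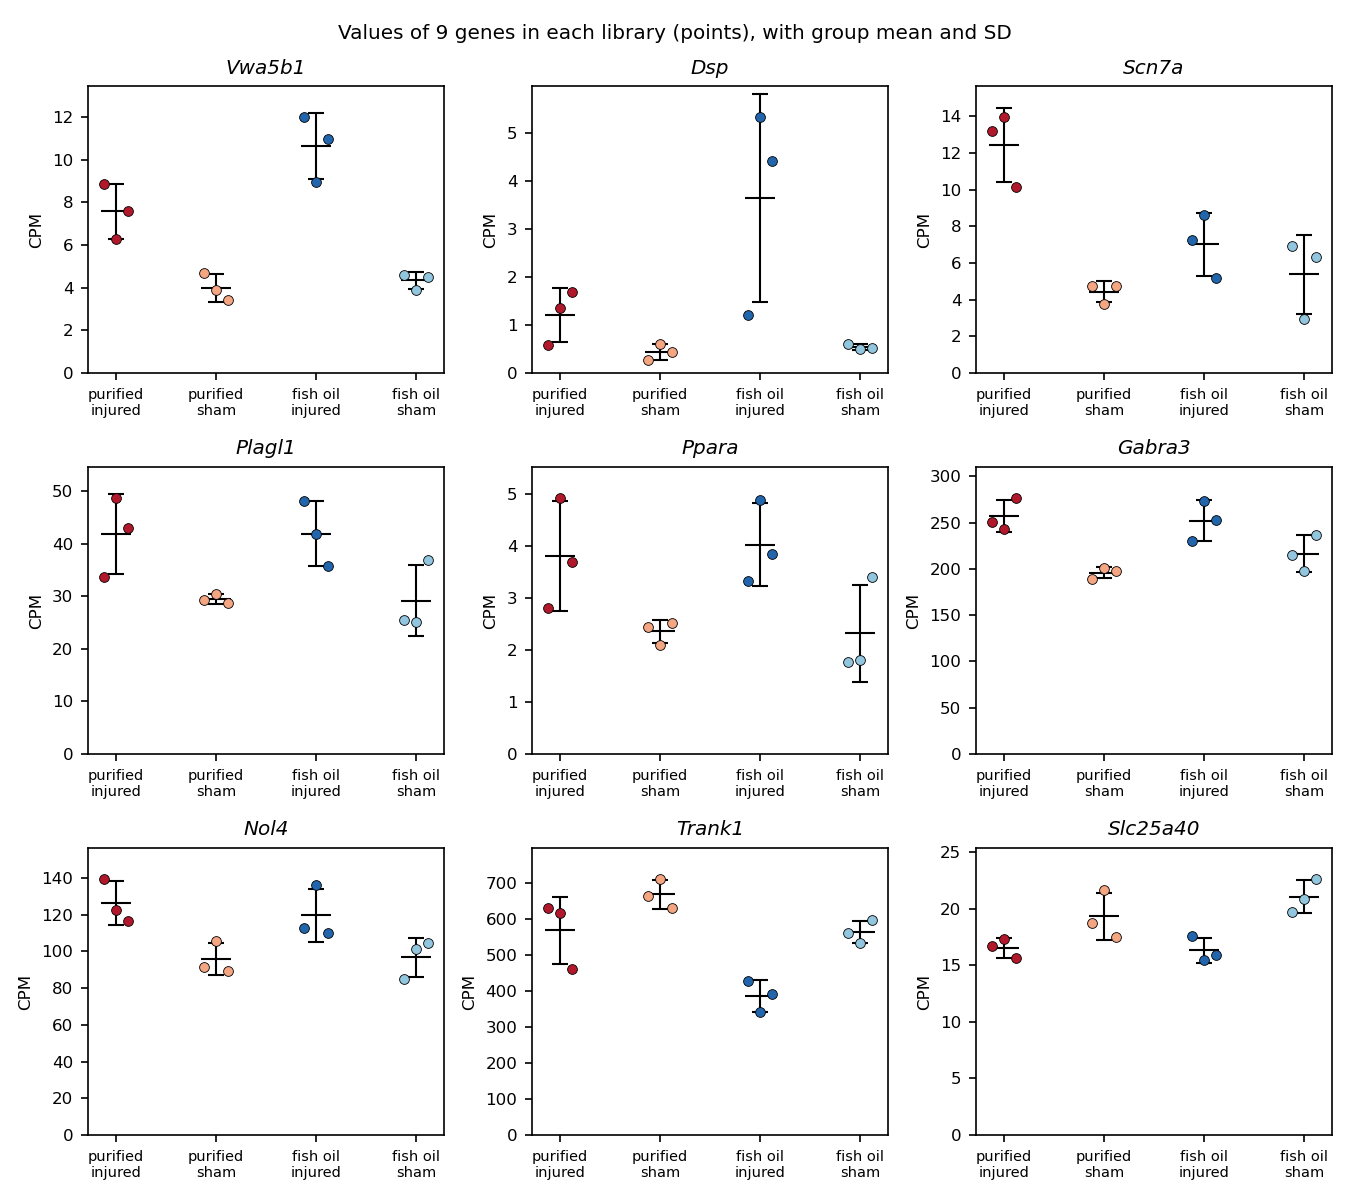
Level of 9 genes in each library as CPM on a linear axis from 0, with injured left of sham for each diet; points are libraries, long bars the group means and whiskers the SD (n = 3). Vwa5b1 separates injured from sham in both diets (6.30 to 12.01 CPM against 3.42 to 4.69 CPM), Trank1 and Slc25a40 lie lower in injured libraries of each diet, Nol4 lies higher in injured libraries of each diet, and Scn7a separates only on the purified diet.

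A stricter count took genes whose 3 injured libraries all lay above, or all below, the 3 sham libraries of each diet. There were 56 such genes, 0.291% of those tested, of which 18 (0.0935%) were higher and 38 (0.197%) lower in injured tissue. Separation in opposite directions in the 2 diets was found for 83 genes (0.431%). Within single diets, injured libraries lay above sham libraries for 949 genes (4.93%) on the purified diet and 956 genes (4.97%) on the fish oil diet. They lay below for 1286 genes (6.68%) and 1007 genes (5.23%) in the same order.

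The higher and lower sets differed in kind. Of the annotated genes among the 18 higher ones, 93.8% were protein-coding, with a median level of 20.3 CPM. Among the 38 lower ones 45.9% were protein-coding, with a median of 1.30 CPM, and 20 carried names of predicted or clone-derived genes. Over all genes tested, 78.6% were protein-coding and the median was 10.9 CPM. Most of these separated genes were also among the 626 genes with an unadjusted edgeR p under 0.05 and the same sign (3.25% of those tested). The 626 are therefore no separate check. Of their annotated genes, 92.4% among the 310 higher and 56.9% among the 316 lower ones were protein-coding. The median exonic length was 4807 bases for those higher genes, 3096 bases for the lower ones and 3714 bases over all genes tested. Level and length differ between these sets, and their part in the difference was not tested.

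The next genes were chosen from the 56 after their values had been seen, because they separated in both diets. Adam10, the main alpha-secretase of the amyloid precursor protein, had 124, 116 and 126 CPM in purified-diet injured libraries, against 104, 108 and 108 CPM in purified-diet sham libraries. Adam10 had 126, 127 and 109 CPM in fish oil injured libraries, against 64.9, 106 and 109 CPM in fish oil sham libraries. Cers6, a ceramide synthase, had 85.01, 112 and 89.8 CPM in purified-diet injured against 83.96, 82.1 and 79.01 CPM in purified-diet sham libraries, and 97.9, 90.6 and 86.6 CPM in fish oil injured against 79.1, 67.97 and 80.5 CPM in fish oil sham libraries. The nearest fish oil libraries of Adam10 were at 109.5 CPM in the injured and 108.8 CPM in the sham group. Average log2 fold changes were 0.29 ± 0.11 for Adam10 and 0.25 ± 0.082 for Cers6 (SE). The value of Adam10 was 0.18 without fish oil sham library 2, which had 64.9 CPM, and that of Cers6 was 0.16 with the regional covariates. Other separated averages were 0.16 for the nuclear import adaptor Kpna4, 0.16 for the iron-sulfur assembly factor Ciapin1, 0.18 for the elongin subunit Eloa and 0.29 for Fam171b. Fam171b was at 0.14 without purified-diet injured library 3 and at 0.028 with the regional covariates, where Kpna4 was at 0.073. Il17d, a cytokine of the interleukin 17 family, averaged 2.46 ± 0.248 CPM in purified-diet injured and 1.80 ± 0.382 CPM in purified-diet sham libraries, and 2.33 ± 0.252 CPM in fish oil injured and 1.63 ± 0.127 CPM in fish oil sham libraries (SD, n = 3 each). Iqub averaged 0.84 and Dennd2c 1.70, the second with 6.32 CPM in purified-diet injured library 3 and 0.366 to 0.885 CPM elsewhere. Dennd2c was at 0.74 without that library and 0.37 with the covariates, and Iqub at 0.46 with the covariates. Scara5, a scavenger receptor for ferritin, had 0.654, 2.28 and 1.66 CPM in fish oil injured libraries against 0.342, 0.0563 and 0.194 CPM in fish oil sham libraries, and 0.236, 0.408 and 0.220 CPM in purified-diet injured libraries against 0.132, 0.0851 and 0.143 CPM in purified-diet sham libraries.

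Gm1110, a predicted protein-coding gene, was near the limit of detection. It had 4, 2 and 2 counts in purified-diet injured libraries and 14, 18 and 17 counts in fish oil injured libraries, against 0 counts in all 6 sham libraries. Set against a floor of 3 counts over a sham group, the injured counts were 2.91-fold higher on the purified diet and 18.5-fold higher on the fish oil diet. These ratios leave out the counting error of the injured libraries and the spread between libraries. Only the fish oil injured libraries reached the minimum count of the filter, so Gm1110 entered the test through that injured group. DESeq2 called it at an adjusted p of 0.0111 and limma-voom at 0.0417. These adjusted p do not allow for that selection, and nothing further is read from them. Mates of a pair seem to have been counted singly, so fewer fragments stand behind the counts and the ratios are not lower bounds.

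Of the 38 lower separated genes, 4 were likewise chosen after their values had been seen. No member of the list of 17 endothelial genes was among the separated genes. Edn1, the vasoconstrictor endothelin 1, had 1.73, 0.836 and 1.24 CPM in purified-diet injured libraries, against 1.87, 2.38 and 1.78 CPM in purified-diet sham libraries. The fish oil diet gave 1.27, 0.825 and 1.00 CPM of Edn1 in injured libraries, against 1.52, 1.32 and 1.32 CPM in sham libraries. Clec14a, an endothelial lectin receptor of new vessels, had 3.47, 2.20 and 2.68 CPM in purified-diet injured against 4.17, 4.00 and 4.28 CPM in purified-diet sham libraries. Clec14a had 2.87, 3.21 and 3.10 CPM in injured and 3.27, 3.47 and 3.33 CPM in sham libraries of the fish oil diet, and the average log2 fold changes were -0.54 ± 0.22 for Edn1 and -0.35 ± 0.14 for Clec14a (SE). Hpn, a membrane serine protease, averaged -0.88 and the orphan receptor Gpr151, a habenular marker, -1.27. Gpr151 had 7.11 CPM in purified-diet sham library 2 and 0.245 to 1.58 CPM in the other 11 libraries, and its average was -0.60 without that library. With the regional covariates the averages were -0.28 for Edn1, -0.21 for Clec14a and -0.55 for Gpr151.

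Among 52 gene lists for cell types, regions and pathways, no member passed the threshold in any list, as for all genes (0%). The medians of the 2 diets had the same sign in 20 lists and opposite signs in 32. No list had a member separated in the same direction in both diets, and more than 1 in 2 of the members had the same sign in both diets in 16 lists.

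Mature oligodendrocyte and myelin genes were the only list whose members all had the same sign in both diets. All 16 were lower in injured tissue on both diets (23.3% of all genes were), with a median log2 fold change of -0.68 on the purified diet, -0.18 on the fish oil diet and -0.47 on average, against 0.0012 for all genes tested. No member had an unadjusted p under 0.05. Opalin, a membrane protein of myelinating oligodendrocytes, had the smallest at 0.0699. It had 17.6, 6.83 and 7.90 CPM in purified-diet injured libraries, against 23.9, 10.9 and 28.8 CPM in purified-diet sham libraries. Opalin had 28.3, 7.12 and 17.8 CPM in fish oil injured libraries, against 29.1, 35.1 and 15.3 CPM in fish oil sham libraries. Injured and sham libraries overlapped in both diets, as they did for the other members described here.

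Mbp, myelin basic protein, had 1184, 775 and 732 CPM in purified-diet injured libraries, against 1391, 708 and 2213 CPM in purified-diet sham libraries. In fish oil injured libraries Mbp had 1950.4, 785 and 1608 CPM, against 1914, 2111 and 1075 CPM in fish oil sham libraries. Mag, the myelin-associated glycoprotein that faces the axon, had average levels of 55.6 ± 23.2 CPM in purified-diet injured and 89.7 ± 42.2 CPM in purified-diet sham libraries, and 81.8 ± 31.7 CPM in fish oil injured and 107 ± 38.1 CPM in fish oil sham libraries (SD, n = 3 each). Cnp, a phosphodiesterase of the myelin sheath, had log2 fold changes of -0.65 ± 0.38 and -0.28 ± 0.38 (SE) on the purified and fish oil diets. At the weak end, Ermn (ermin, a cytoskeletal protein of oligodendrocytes) was -0.012 and Ugt8a, which makes galactosylceramide, -5.4e-05 on the fish oil diet, both at no difference within their error. In bulk tissue, fewer oligodendrocytes, less RNA per cell and differences in the tissue sampled cannot be told apart.

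The myelin members varied together from library to library. Their mean log2 CPM, centred over the 12 libraries, was -0.15, -0.56 and -0.76 in purified-diet injured libraries, against 0.34, -0.78 and 0.72 in purified-diet sham libraries. It was 0.72, -0.82 and 0.22 in fish oil injured libraries, against 0.57, 0.72 and -0.22 in fish oil sham libraries. Sham library 3 on the purified diet was as low as the lowest injured libraries, and injured library 2 on the fish oil diet was as high as the highest sham libraries. Because the members vary as one quantity, their 16 signs are not 16 independent observations. All 16 averages were below 0 (49.7% of all genes were), as in each of the 12 fits without 1 library, with medians between -0.64 and -0.27. The number lower in both diets was 6 without fish oil injured library 3, where the fish oil median was 0.11, and was 12 without the 2 libraries of other regions, where the averaged median was -0.37. With the regional covariates, 1 of 16 averages was below 0, no member was lower in both diets, and the medians were -0.73 on the purified diet, 1.26 on the fish oil diet and 0.27 on average. The choroid plexus covariate largely overlaps with the fish oil injury difference, so the last 2 medians are uncertain and not adjusted effects to rely on. Of 12 oligodendrocyte precursor genes, 4 were lower in both diets, with a median of -0.034 for the average. On the purified diet 8 of the 12 were higher (median 0.14), and on the fish oil diet all 12 were lower (median -0.20). This list thus differed in direction from the myelin genes on the purified diet only. Bcas1, a marker of newly forming oligodendrocytes, had the smallest p of that list (0.149) and log2 fold changes of -0.76 and -0.15 on the purified and fish oil diets.

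**Figure D3:**
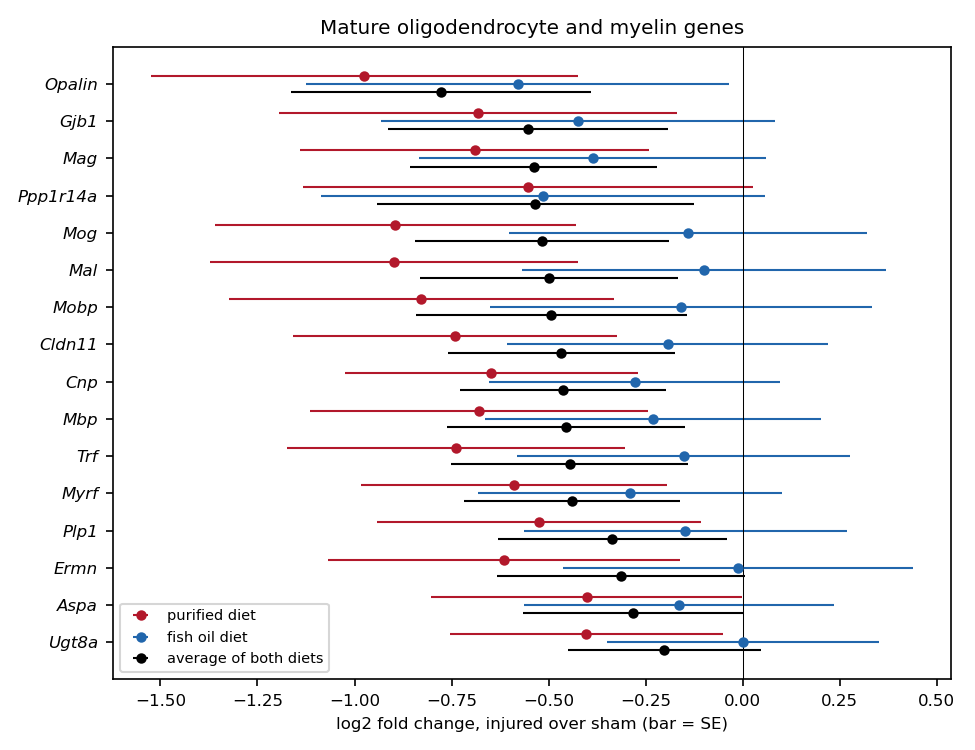
Log2 fold change of injured over sham for the 16 mature oligodendrocyte and myelin genes on the purified diet (red), on the fish oil diet (blue) and on average (black), ordered by the average; whiskers are the SE from the F statistic. All points lie at or below 0, from -0.78 (Opalin) to -0.20 (Ugt8a) for the average, and the purified diet values are the lower of each pair.

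Endothelial genes were lower in injured tissue on both diets for 12 of 17 members and higher on both for 0. Over all genes the shares were 23.3% and 22.9%. The medians of the list were -0.31 on the purified diet, -0.093 on the fish oil diet and -0.21 on average. Members of any list are measured in the same 12 libraries, so their signs are not independent observations. At an unadjusted p under 0.05, 3 members were lower (1.72% of all genes were) and 0 higher. Pecam1, an adhesion molecule of endothelial junctions, had 13.6, 15.8 and 12.6 CPM in purified-diet injured libraries, against 15.5, 16.2 and 20.5 CPM in purified-diet sham libraries. Pecam1 had 11.8, 8.51 and 8.06 CPM in fish oil injured libraries, against 11.7, 13.1 and 10.99 CPM in fish oil sham libraries. The groups of Pecam1 overlapped in both diets, and its log2 fold changes were -0.31 and -0.33. The other 2 were Tek, the angiopoietin receptor Tie2, at -0.28 ± 0.13, and Adgrf5, an adhesion receptor of vessels, at -0.21 ± 0.092 (average log2 fold change and SE).

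Tek had log2 fold changes of -0.42 on the purified and -0.15 on the fish oil diet, and Adgrf5 -0.34 and -0.088. The regional covariates gave averages of -0.17 for Tek, -0.13 for Adgrf5 and -0.49 for Cldn5. Flt1, a receptor of vascular endothelial growth factor, averaged -0.23 and Cldn5, the main claudin of the blood-brain barrier, -0.31. The centred endothelial level was 0.14, 0.30 and -0.051 in purified-diet injured libraries, against 0.22, 0.41 and 0.61 in purified-diet sham libraries. It was -0.22, -0.49 and -0.22 in fish oil injured libraries, against -0.35, -0.11 and -0.23 in fish oil sham libraries, with both groups overlapping. The number lower in both diets was 14 without the 2 libraries of other regions, 8 without fish oil injured library 3 or without fish oil sham library 3, and 4 with the regional covariates, where the medians were -0.40 on the purified diet, 0.075 on the fish oil diet and -0.16 on average. The fish oil median thus had the opposite sign in that fit. Averages below 0 numbered 13 to 16 of 17 in the fits without 1 library.

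Other vascular genes gave a mixed picture. Of 13 tested genes of pericytes and smooth muscle, 5 were lower and 1 higher in both diets, with a median of -0.25. Atp13a5, a transporter of brain pericytes, had 10.8, 11.05 and 9.70 CPM in purified-diet injured libraries against 11.7, 13.2 and 13.9 CPM in purified-diet sham libraries, and 7.69, 7.97 and 8.95 CPM in fish oil injured libraries against 8.02, 9.59 and 11.01 CPM in fish oil sham libraries. Of 21 angiogenesis genes, 7 were lower and 4 higher in both diets. Vegfa, the principal angiogenic growth factor, had 62.4, 71.9 and 49.8 CPM in purified-diet injured libraries against 64.5, 66.5 and 74.4 CPM in purified-diet sham libraries, with overlap. Vegfa had 50.8, 50.03 and 49.7 CPM in fish oil injured libraries, against 57.5, 70.2 and 67.1 CPM in fish oil sham libraries, without overlap. Its average log2 fold change was -0.26 ± 0.092 (SE, unadjusted p 0.0145). Ocln, occludin of tight junctions, had 0.32 ± 0.12 (SE) on average and 0.15 with the regional covariates, one of 18 blood-brain barrier genes, of which 5 were higher and 4 lower in both diets.

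Genes of fatty acid oxidation were higher in both diets for 14 of 20 tested members and lower in both for 0, against 22.9% and 23.3% of all genes. The medians were 0.14 on the purified diet, 0.11 on the fish oil diet and 0.13 on average, and 1 member, Ppara, was higher at an unadjusted p under 0.05 (1.89% of all genes were). Acot1, a cytosolic acyl-CoA thioesterase and PPAR alpha target, had 3.35, 2.89 and 3.42 CPM in purified-diet injured libraries, against 2.64, 2.75 and 3.21 CPM in purified-diet sham libraries. Acot1 had 4.51, 4.98 and 4.62 CPM in fish oil injured libraries, against 2.70, 3.66 and 4.04 CPM in fish oil sham libraries, where the groups did not overlap. Cpt2, the inner-membrane carnitine palmitoyltransferase, averaged 0.30 ± 0.15 (SE, 0.18 with the regional covariates) with overlapping groups on the purified and the fish oil diet. The number higher in both diets lay between 9, without fish oil injured library 3, and 15 in the fits without 1 library, and was 10 without the 2 libraries of other regions. With the regional covariates 3 members were higher and 5 lower in both diets, and the median was -0.03. The centred list level was -0.23, 0.22 and 0.073 in purified-diet injured libraries and -0.22, -0.28 and 0.011 in purified-diet sham libraries, and -0.0012, 0.30 and 0.12 in fish oil injured libraries and 0.011, -0.075 and 0.074 in fish oil sham libraries.

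Fatty acid synthesis and desaturation had 6 of 20 members higher and 2 lower in both diets, with an average median of 0.076. Me1, the malic enzyme that supplies NADPH for lipid synthesis, had 57.8, 59.9 and 66.8 CPM in purified-diet injured against 52.1, 43.7 and 50.1 CPM in purified-diet sham libraries. On the fish oil diet Me1 had 56.4, 67.9 and 62.6 CPM in injured and 55.4, 50.8 and 58.8 CPM in sham libraries. The average was 0.26 ± 0.077 for Me1, 0.19 ± 0.064 for Acaca, the acetyl-CoA carboxylase that commits carbon to synthesis, and -0.27 ± 0.12 for Elovl1, an elongase of very long chains (log2 fold change and SE). Elovl1 was at -0.16 with the regional covariates. Cholesterol synthesis had 8 of 20 members higher and 1 lower in both diets.

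Lists of stress responses had small medians. Of 22 genes for unfolded protein and integrated stress responses, 8 were higher and 2 lower in both diets, with medians of -0.056 on the purified and 0.19 on the fish oil diet. At an unadjusted p under 0.05, 4 members were higher (1.89% of all genes were) and 0 lower. Hspa5, the endoplasmic reticulum chaperone BiP, had 187, 245 and 297 CPM in purified-diet injured libraries, against 206, 219.8 and 206 CPM in purified-diet sham libraries. In fish oil injured libraries Hspa5 had 312, 339 and 295 CPM, against 232, 198 and 237 CPM in fish oil sham libraries, without overlap. Pdia4, a disulfide isomerase of the same compartment, had log2 fold changes of 0.20 and 0.39, and Manf, a secreted stress-induced protein, 0.059 and 0.38, on the purified and fish oil diets. Both separated on the fish oil diet and overlapped on the purified diet, and the difference between the diets passed the threshold for no gene. With the regional covariates the average was 0.20 for Hspa5, against 0.35 without them, and 0.14 for Pdia4, against 0.29. Iron and ferroptosis genes had 9 of 15 members higher and 3 lower in both diets with a median of 0.036 (0.072 on the purified and 0.069 on the fish oil diet), and NRF2 and antioxidant genes 10 of 21 higher and 2 lower with the same median. Aco1, an iron-responsive aconitase, averaged 0.16 (0.10 with the covariates) and Txnrd1, the thioredoxin reductase, 0.16. Apoptosis and p53 target genes had 8 of 20 higher and 4 lower in both diets, among them Bcl2, an inhibitor of apoptosis, at 0.25 ± 0.11 and Sesn2, a stress-induced sestrin, at 0.21 ± 0.097 (SE). Bcl2 was at 0.013 with the covariates.

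Glial reaction genes showed no common direction. Reactive astrocyte genes had 4 of 20 higher and 4 lower in both diets, and microglial genes 2 of 17 higher and 2 lower, with 13 of opposite sign. Gfap, the intermediate filament of reactive astrocytes, had 52.2, 159 and 169 CPM in purified-diet injured libraries, against 77.1, 73.4 and 128 CPM in purified-diet sham libraries. Gfap had 139, 189 and 67.8 CPM in fish oil injured libraries, against 154, 107 and 151 CPM in fish oil sham libraries, so the groups overlapped in both diets. Its average log2 fold change was 0.19 ± 0.32 (SE, unadjusted p 0.554), and Aif1, which encodes the microglial protein IBA1, averaged 0.068 ± 0.18 (SE, unadjusted p 0.718). Without single libraries Gfap lay between 0.018 and 0.38, and it was at -0.19 with the regional covariates. Serpina3n, an acute-phase protease inhibitor of reactive astrocytes, had log2 fold changes of 1.04 on the purified and 0.023 on the fish oil diet. Its average of 0.53 was 0.28 without purified-diet injured library 3 and 0.22 with the covariates. Lcn2, an iron-binding acute-phase protein, averaged -1.97 ± 0.76 (SE), set by purified-diet sham libraries 3 and 4 at 3.02 and 3.48 CPM, against at most 0.433 CPM in the other 10.

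Disease-associated microglia genes had 8 of 19 higher and 3 lower in both diets. Lgals3, galectin 3, was low throughout, at 0.197, 0.367 and 0.320 CPM in purified-diet injured against 0.149, 0.0851 and 0.428 CPM in purified-diet sham libraries. Lgals3 had 0.327, 0.667 and 0.539 CPM in injured and 0.114, 0.239 and 0.0646 CPM in sham libraries of the fish oil diet, without overlap. Gpnmb, a lysosomal glycoprotein, had 14.5 CPM in purified-diet injured library 3 and 1.71 to 5.67 CPM elsewhere, and its average of 0.82 was 0.34 without that library, while Ctsz, the protease cathepsin Z, was lower at -0.29 ± 0.10 (SE). Interferon response genes had 17 of 24 members of opposite sign, with medians of 0.22 on the purified and -0.24 on the fish oil diet. Ifi27 averaged 0.27 (0.18 without fish oil injured library 4 and 0.16 with the covariates) and Rtp4 -0.60. Complement genes had 3 of 16 higher and 3 lower in both diets, among them C1s1, which encodes a protease of the first complement component, at -0.79, or -0.47 without fish oil sham library 3.

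Synapse genes had 10 of 20 members higher and 1 lower in both diets, with medians of 0.035 on the purified and 0.065 on the fish oil diet, and Nrxn2, a presynaptic adhesion molecule, averaged 0.27 (0.51 and 0.028). The average of Nrxn2 was 0.12 without fish oil injured library 3 and 0.085 with the regional covariates. Glutamate and GABA receptor genes had 10 of 35 higher and 2 lower in both diets, and 3 were higher at an unadjusted p under 0.05 (1.89% of all genes were), Gabra3 and 2 others. Grik3, a kainate receptor subunit, had 169, 162 and 121 CPM in purified-diet injured libraries against 118, 120.2 and 101.4 CPM in purified-diet sham libraries, and 145, 155 and 126 CPM in fish oil injured libraries against 147, 114 and 108 CPM in fish oil sham libraries. Gabra5, the alpha 5 subunit of the GABA-A receptor, had log2 fold changes of 0.74 on the purified and 0.13 on the fish oil diet, and an average of 0.43 that was 0.28 without the 2 libraries of other regions and 0.24 with the covariates. Neurodegeneration genes had 5 of 25 higher and 9 lower in both diets with a median of -0.011. Mapt, which encodes tau, averaged -0.054 ± 0.081 (SE) and Bace1, the beta-secretase, 0.13 ± 0.076 (SE), which was 0.083 without fish oil injured library 3 and 0.054 with the covariates. Nefl, the light neurofilament chain, had -0.56 on the purified and 0.13 on the fish oil diet.

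Several lists pointed in opposite directions in the diets, so their average stands for unlike values. Immediate early genes had 14 of 20 members of opposite sign, with medians of -0.64 on the purified and 0.34 on the fish oil diet. Btg2 and Junb, activity-induced genes of this list, were lower in both, at -0.95 and -0.35 for Btg2 and -0.88 and -0.17 for Junb. Without fish oil sham library 3 the averages were -0.42 for Btg2, against -0.65 with it, and -0.27 for Junb, against -0.53. Cytosolic ribosomal protein genes had 25 of 36 and nuclear oxidative phosphorylation genes 24 of 34 members of opposite sign. Clock genes had 15 of 20 of opposite sign, and Arntl, the core activator of the clock, was lower in both at -0.51 and -0.22. Mitochondrial calcium uniporter genes had 5 of 12 higher and 1 lower in both diets. Mcu, the pore of the uniporter, averaged 0.20 ± 0.097 (SE), and its inhibitory paralogue Mcub 1.54 ± 0.46 (SE), with 4.83 CPM in purified-diet injured library 3 and 0.255 to 1.28 CPM elsewhere. Without that library Mcu averaged 0.13 and Mcub 0.96, and with the regional covariates 0.065 and 0.39. Extracellular matrix genes had 12 of 32 higher and 4 lower in both diets, with medians of 0.45 on the purified and -0.018 on the fish oil diet and an average of 0.21, or -0.04 with the regional covariates. Nid2, a basement membrane nidogen, averaged 0.70 and 0.093 with the covariates, and Col12a1, a fibril-associated collagen, had 1.06 on the purified and 0.001 on the fish oil diet. The average of Col12a1 was 0.53, or 0.34 without purified-diet injured library 2 and 0.86 with the covariates, and that of Nid2 was 0.43 without the 2 libraries of other regions.

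**Figure D4:**
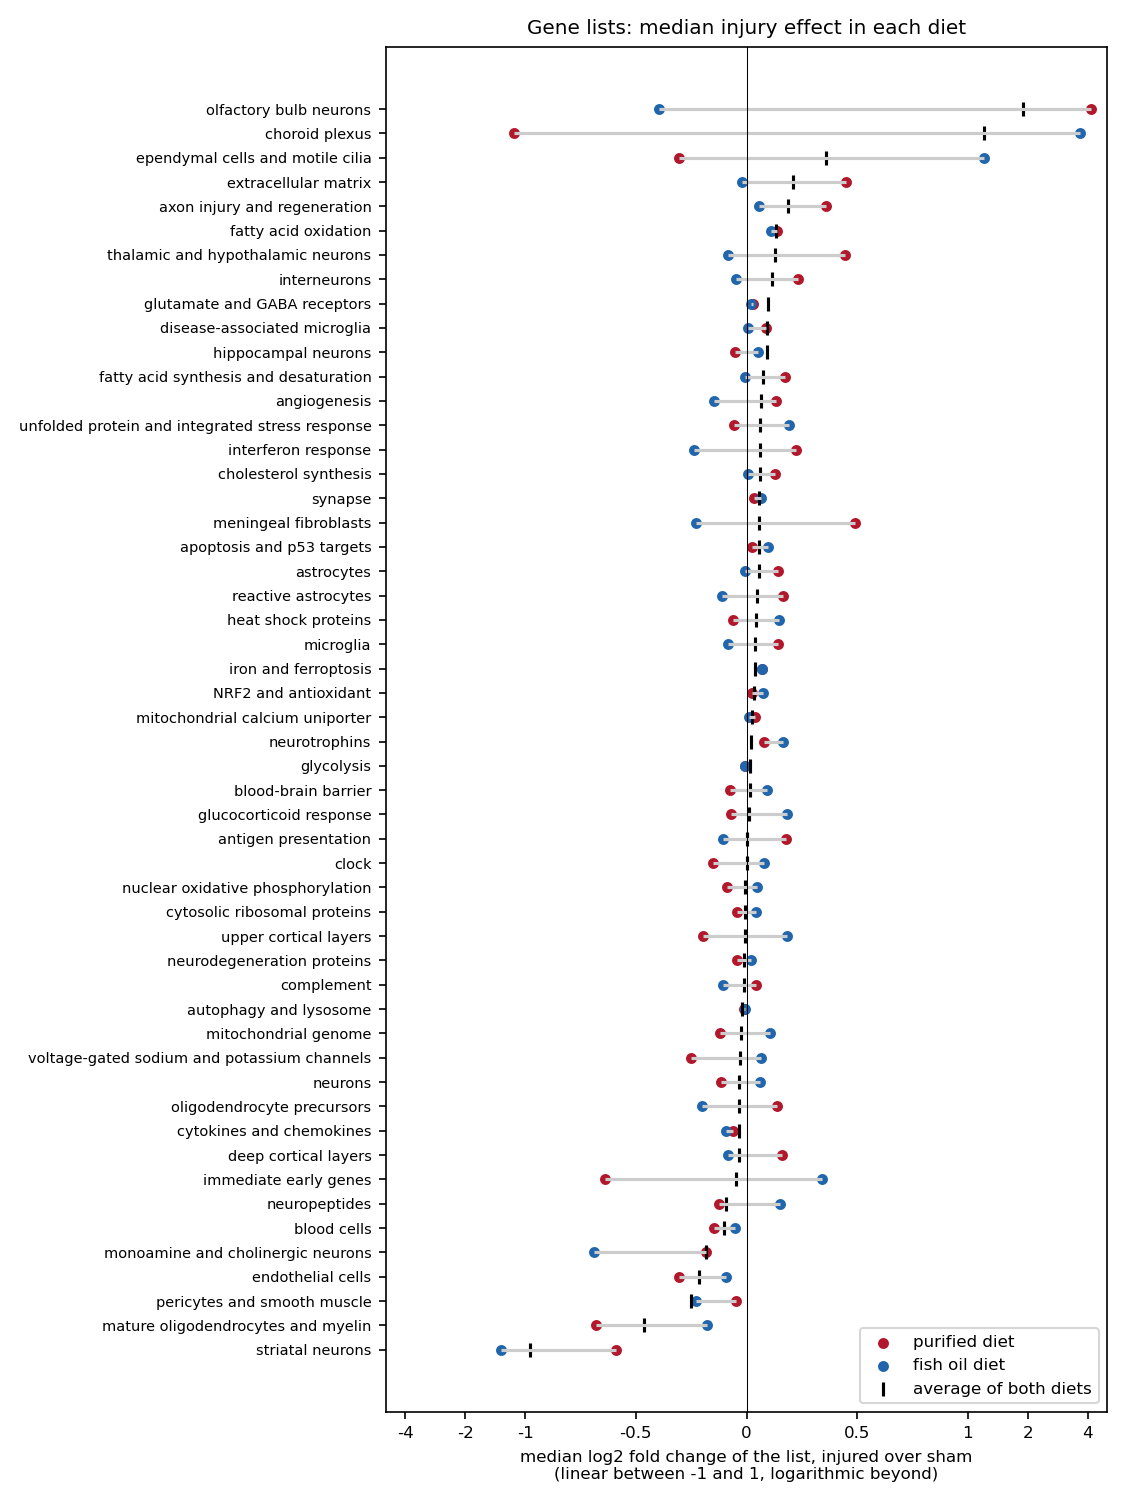
Median log2 fold change of injured over sham for the 52 gene lists on the purified diet (red), on the fish oil diet (blue) and on average (black ticks), on an axis that is linear between -1 and 1 and logarithmic beyond. Myelin (-0.68 and -0.18), endothelial (-0.31 and -0.093) and fatty acid oxidation genes (0.14 and 0.11) lie on one side of 0 in both diets, whereas choroid plexus and olfactory bulb genes span 0.

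The largest averaged medians belonged to genes of other regions and rested on few libraries. Olfactory bulb genes had a median of 1.90, with 4.13 on the purified and -0.40 on the fish oil diet, and 0.16 without purified-diet injured library 3. Trh, thyrotropin-releasing hormone, and Dnah11, a dynein of motile cilia, had 66.5 and 48.2 CPM in that library. Dnah11 had 0.352 to 3.27 CPM in the other 11 libraries, while Trh was also high in purified-diet injured library 4 and fish oil injured library 3, at 37.0 and 32.0 CPM. Choroid plexus genes had a median of 1.21, with -1.14 on the purified and 3.67 on the fish oil diet, and 13 of 15 members of opposite sign. Striatal genes had a median of -0.98, with 10 of 14 lower in both diets, and 0.0038 without fish oil sham library 2 alone. Adora2a, an adenosine receptor of striatal neurons, had 57.1 CPM in that library and 19.98 CPM in purified-diet sham library 4, against 0.380 to 6.33 CPM elsewhere. Ependymal and motile cilia genes had 4 of 14 higher and 0 lower in both diets. Rsph1, a radial spoke protein of cilia, had 0.68 and 0.84 on the purified and fish oil diets, and Pifo, another cilium gene, 0.59 and 2.54. The average of Rsph1 was 0.76, or 0.50 without fish oil injured library 3, and that of Pifo was 1.56, or 0.78 with the covariates. Atf3, an injury-induced transcription factor of axon regeneration, had 21.6 CPM in purified-diet injured library 3 and 0.433 to 4.51 CPM elsewhere, and its average of 1.79 was 0.44 without that library.

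**Figure D5:**
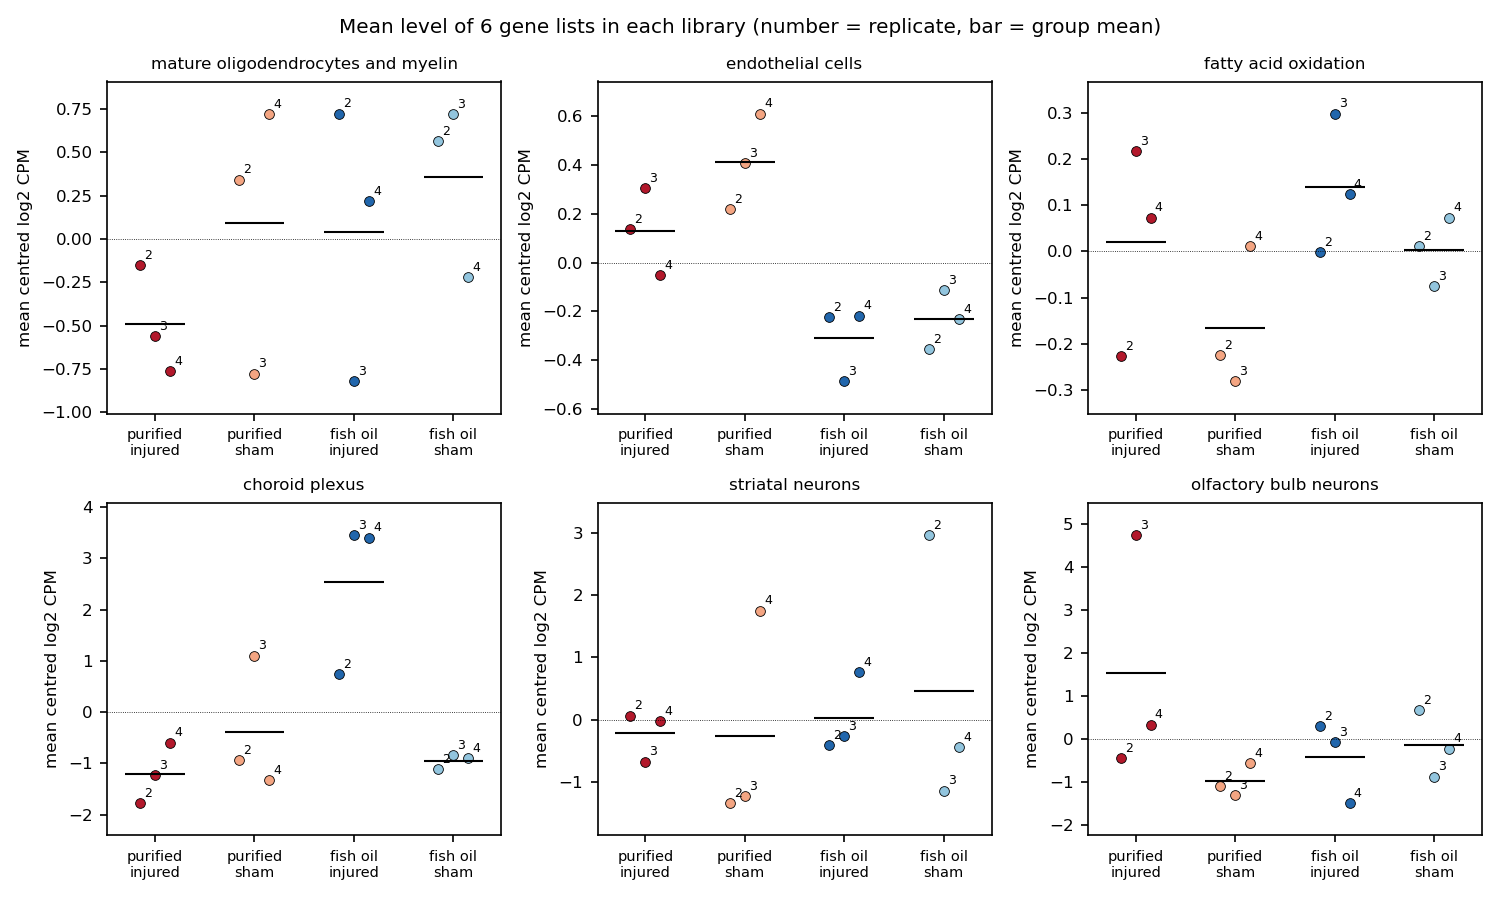
Mean log2 CPM of 6 gene lists in each library, centred over the 12 libraries, with injured left of sham for each diet; points carry the library number and bars are group means. Myelin, endothelial and fatty acid oxidation levels overlap between injured and sham groups on both diets. Single libraries stand far out for choroid plexus (fish oil injured 3 and 4), striatal (fish oil sham 2) and olfactory bulb genes (purified injured 3, at 4.74).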

How the data were processed

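RNA-seq counts were analysed for 12 libraries of mouse cortex, in 4 groups of 3 named by the sample titles. Stranded TruSeq libraries of total RNA were read as pairs on an Illumina NovaSeq, per the labels' protocols. The submitters' processing notes name the build mm10, the aligner STAR (2.5.2a) and the counter featureCounts (1.4.3-p1). No annotation release, strand setting or rule for multi-mapping reads was given there, so reads of overlapping, antisense and near-identical genes may be shared. The authors deposited raw counts per gene for 53379 Ensembl identifiers; 20514 values were 2 and 11222 were 1, as when the mates of a pair are counted singly.

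Symbols came from GENCODE M21 (53274 identifiers matched without and 50604 with version), and positions are printed only for matches with version. Genes were kept with filterByExpr at its default minimum count of 10. With TMM factors, edgeR 4.0.16 (R 4.3.3; glmQLFit robust, glmQLFTest) fitted 4 group means to all 12 libraries, leaving 8 residual degrees of freedom. The contrast was the mean of injured minus sham over the diets, with Benjamini-Hochberg adjustment over 19252 genes at a threshold of 0.05. SEs were derived from the F statistic. List levels are means of log2 CPM with a prior count of 2. Taken over all genes, replicates of each group differed far beyond sampling noise. This does not hold for every single gene. Clec14a, for example, had 3.35 ± 0.10 CPM in fish oil sham libraries (SD, n = 3), a spread within counting error. Narrow gaps between injured and sham libraries may then lie within counting error too.

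The members and the 52 gene lists (916 genes, 893 tested) were chosen with earlier results of these data known. Named genes are the 24 of smallest unadjusted p with the same sign in both diets, a mean of at least 1 CPM and a symbol that is not a predicted or clone name, then up to 3 members of each list by the same p, not all of them reported here. Others are said to be chosen after their values were seen, as are the defining markers of lists (Gfap, Aif1, Mbp, Cnp, Mag, Rbfox3, Mapt, Nefl, Bace1, Mcu, Cldn5, Flt1, Adora2a, Drd2, Ttr, Cdhr1). Alternatives were DESeq2 1.42.0, limma 3.58.1 (voom), other scalings and filters, an additive model, the replicate number as a block and leaving out each library. The procedure was run on simulated data with independent genes, the same injury effect in both diets and no transcripts of other regions. That setting differs from these libraries, so nothing is concluded from it about them.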

Additional observations from a re-analysis of the deposited data

How the results depend on the processing

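Calls in the averaged comparison numbered 0 with edgeR under other scalings, a mean of at least 1 CPM, the additive model and each of the 12 fits without 1 library (0 to 0 genes). They numbered 3 with DESeq2, 2 with limma-voom, 2 with sample quality weights and 2 with correlated library numbers. Each of these fits counts Gm1110, which entered the test only through the fish oil injured group. There was 1 call with no filter on low counts and 1 at a threshold of 0.10. Library numbers here are the first numbers of the library names, which libraries 3 and 4 of each group share. The labels do not say what they mark. The fitted correlation was -0.256. That limma-voom fit had 1454 genes at an unadjusted p under 0.05, against 694 in the main edgeR fit. The additive model gives no value per diet, so it has none for the sign count. Without 1 library, the genes with the same sign numbered 7857 to 10492, and the other alternatives stayed within 1.5 times the main count.

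The replicate number as a block gave 0 calls (lowest adjusted p 0.0751) and 8941 genes of the same sign. Libraries of the same number did not deviate together: 3 of 18 pairs had a correlation above 0.1 and 3 of 12 libraries matched their own number best.

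Of 96 genes followed over 24 alternatives, 17 changed sign in at least 1. With regional covariates the average log2 fold change was -0.052 for Aqp1, 0.20 for Opalin, 0.20 for Cnp, 0.25 for Mag, 0.29 for Mbp, 0.27 for Bcas1, -0.15 for Gpnmb, -0.19 for Gfap, 0.039 for Mapt, 0.0055 for Nefl, 0.0012 for Rbfox3, -0.16 for Ttr, 0.48 for Drd2, -0.39 for Cdhr1 and -0.16 for Dnah11. Without the 2 libraries of other regions it was 0.0033 for Mapt, 0.011 for Rbfox3, 0.018 for Adora2a and 0.33 for Drd2. For Drd2 it was 0.38 with limma-voom, 0.68 with limma-voom with sample quality weights and 0.48 with limma-voom with correlated library numbers. Fits without 1 library gave -0.015 to 0.19 for Aif1, -0.11 to 0.0042 for Mapt, -0.25 to 0.047 for Rbfox3, -3.23 to 0.0068 for Adora2a and -2.61 to 0.33 for Drd2. Aqp1, Ttr, Drd2 and Cdhr1 belong to the lists used as covariates, so their reversals with the covariates are partly built in. These covariates and the removal of 2 libraries were chosen after seeing the data, and the cause of each reversal was not tested. With 3 libraries a group, differences of the size seen here were within the spread between libraries for nearly all genes.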
